A study of Bos taurus with 2 samples.

Results

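The *ATF4* effector genes examined here are 10 genes that the transcription factor ATF4 is known to induce. They comprise enzymes of asparagine, proline and alanine synthesis (*ASNS*, *PYCR1*, *ALDH18A1* and *GPT2*), the mitochondrial phosphoenolpyruvate carboxykinase *PCK2*, the intracellular stress effectors *CHAC1*, *SESN2* and *NUPR1*, and the secreted hormones *STC2* and *GDF15*. The genes were chosen by name as ATF4 targets, but with their difference between the LN and HN pools already known, so that every difference given here is a description and supports nothing beyond itself. They were found through the accessions of the array probes. Of the 10 genes, 9 had a probe, 8 had a measurable LN/HN ratio, and the array held 26714 genes or unnamed transcripts in all. *GDF15* had a probe that was not well above background on either array, and no probe accession matched *STC2*.

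The study compared longissimus thoracis (LT) muscle from Japanese Black fetuses taken 8.5 months after conception (day 260 ± 8.3). The dams of the low-nutrition (LN) group received 60% of their requirement before and throughout pregnancy and those of the high-nutrition (HN) group 120%, so neither diet was set at the requirement itself. All dams were inseminated with male-sorted semen of the same sire, and the fetuses of both groups were delivered by cesarean section and euthanized by exsanguination after lidocaine. RNA of 4 fetuses was pooled per group, those with the lowest body weight in the LN group and those with the highest in the HN group, and each pool was hybridized to 1 array. Diet and the selection by body weight therefore cannot be told apart, the spread between fetuses is not known, and no test between the groups was possible. In such tissue RNA, fewer cells of a type and less RNA per cell cannot be told apart either.

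ATF4 is a transcription factor whose translation rises when the initiation factor eIF2α is phosphorylated, as happens when amino acids are short, the endoplasmic reticulum is stressed or mitochondria are impaired. Its protein pairs with C/EBP factors and switches on genes that make and import amino acids, as well as genes that restrain growth signaling and protect or kill the stressed cell. In skeletal muscle this response is known for raising secreted stress hormones, of which GDF15 and FGF21 are the best studied.

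On these arrays 74.5% of the spots of the HN array and 70.9% of those of the LN array were marked by the scanner software as well above background. Probes printed in several spots gave an SD of 0.085 for the log2 ratio of a single spot (42 probes), and the 8 spike-in RNAs had a log2 ratio between -0.11 and 0.065 before normalization. Defining muscle genes were bright in both pools (*ACTA1*, log2 signal 17.57 in HN and 17.53 in LN). Signals are given below as the deposited intensity, in arbitrary units with the error estimate of the software, or as the log2 signal after quantile normalization, and the log2 ratio of a probe or gene is always that of LN over HN. The error given with a log2 ratio combines the error estimates of both spots. It covers the array measurement and not the variation between animals.

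All 8 genes with a ratio were higher in the LN pool, *GPT2* not under every scaling, against 49.3% of the 19554 genes with a value. Of these 8, *PCK2* and *ASNS* were more than 2-fold higher, against 0.711% of all genes. *SESN2*, *CHAC1* and *PYCR1* also passed a log2 ratio of 0.32, the smaller fold limit of the study, which makes 5 of 8 genes, against 8.85% of all genes. The smallest value was that of *GPT2* (log2 ratio 0.04), which became -0.05 after scaling to the 75th percentile and -0.02 on the unnormalized signals. The median log2 ratio of the 8 genes was 0.56, and that of all genes was -0.0033. Since the genes were chosen with this contrast known, nothing is read from these counts. The division of all genes past 2-fold was 139 higher and 56 lower in the LN pool, while scaling to the 75th percentile gave 80 and 93, cyclic loess 104 and 75, and the unnormalized signals 91 and 84. *PCK2* and *ASNS* were past 2-fold under each of these scalings. After the normexp background correction, which left 9 higher and 4 lower genes past 2-fold, they were not (0.86 and 0.84). At the level of probes, 10 of the 11 with a ratio were higher in the LN pool, against 49.8% of all 31986 probes with a ratio, and 6 differed by more than 1.96 times their error, against 8.02% of all probes.

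**Figure D1:**
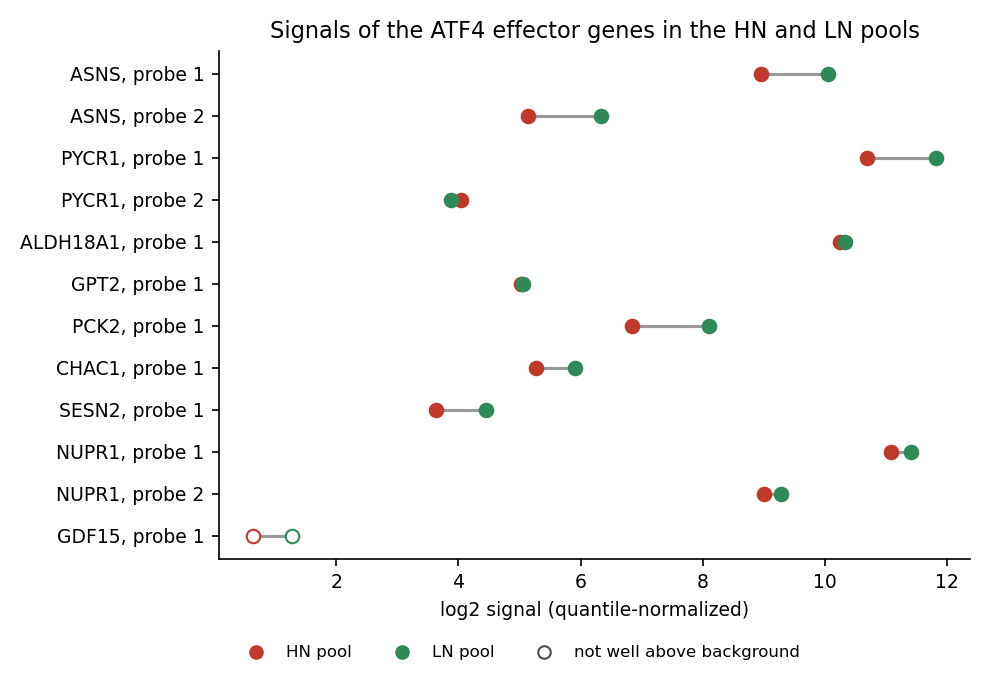
Log2 signal after quantile normalization of each probe of the ATF4 effector genes (x axis, log2 units) in the HN pool (red) and the LN pool (green), 1 array each, with a grey line joining both values of a probe. The lines of *ASNS*, *PCK2* and the first probe of *PYCR1* are the longest, those of *ALDH18A1* and *GPT2* are close to points, and the open circles of *GDF15* lie near the background.

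*ASNS*, asparagine synthetase, transfers the amide nitrogen of glutamine to aspartate. Its first probe had an intensity of 489 ± 49.0 in HN and 1073 ± 107 in LN, giving a log2 ratio of 1.09 ± 0.20. The second probe gave 36.0 ± 3.80 and 80.3 ± 8.17, a log2 ratio of 1.19 ± 0.21. Both probes were thus more than 2-fold higher in the LN pool and differed from each other by less than their errors. The gene was 2.20-fold higher (log2 ratio 1.14) and ranked 85 from the top among all genes with a value. Genes related to *ASNS* had ratios close to 0. *ASNSD1*, which encodes a protein with an asparagine synthetase domain, had 0.12, the mean of 3 probes that ranged from 0.00077 to 0.22, and *ASRGL1*, an asparaginase that releases aspartate, had 0.01, the mean of -0.06 and 0.07.

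*PCK2*, which forms phosphoenolpyruvate from oxaloacetate inside mitochondria, showed the largest difference of the 8 genes. Its only probe had an intensity of 115 ± 11.6 in HN and 277 ± 27.7 in LN, giving a log2 ratio of 1.26 ± 0.20. This is 2.39-fold higher in the LN pool, rank 58 of all genes. The probes well above background on both arrays were divided into 10 equal classes of mean signal. In the class of *PCK2*, 95% of these probes had a log2 ratio between -0.47 and 0.41. *PCK1*, the cytosolic form of the enzyme and a key step of gluconeogenesis in liver, was lower in the LN pool. Only 1 of its 3 probes was well above background, with an intensity of 36.4 in HN and 24.8 in LN, giving a log2 ratio of -0.49 ± 0.22. The forms thus differed by 1.75 in log2 ratio. *PCK1* was -0.09 when its dim probes were included and -0.18 after the normexp background correction. The size of its difference thus changed with the filter and with that setting, which also added an offset and used median spot signals.

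The enzymes of proline synthesis differed from each other. *ALDH18A1* encodes the bifunctional enzyme that starts the pathway from glutamate, and its probe had an intensity of 1193 ± 119 in HN and 1299 ± 130 in LN. The log2 ratio of 0.07 ± 0.20 is within the error. *PYCR1* encodes the mitochondrial reductase of the last step. Its first probe gave 1617 ± 162 in HN and 3652 ± 365 in LN, giving a log2 ratio of 1.13 ± 0.20, whereas its second probe gave 17.0 ± 2.25 and 14.1 ± 2.25, a log2 ratio of -0.16 ± 0.30. The probes of *PYCR1* therefore disagreed by more than their errors, and the mean of 0.48 (1.40-fold, rank 895) describes neither. With the first probe alone, the brighter one, *PYCR1* was also past 2-fold (2.18-fold). Which probe reports the main transcript is not known from the files. The related reductase gene *PYCR3* had 1 probe, at 0.0010. Of the genes around proline, *PRODH*, the enzyme that oxidizes it, had a log2 ratio of 0.01, and *ALDH4A1*, the next enzyme of breakdown, had -0.07. *OAT*, which joins ornithine to the same pathway, had -0.25 with 3 probes from -0.55 to -0.07.

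*GPT2*, the mitochondrial alanine aminotransferase, had an intensity of 33.0 ± 3.57 in HN and 32.7 ± 3.64 in LN. The log2 ratio after normalization was 0.04 ± 0.22, and its sign changed with the scaling as given above. Its relative *GPT* had a log2 ratio of 0.12, with probes at 0.08 ± 0.20 and 0.15 ± 0.20. No difference in alanine aminotransferase transcripts beyond the error of the spots was therefore measured in either form. Among the 4 amino acid synthesis enzymes, *ASNS* had a difference past 2-fold in both of its probes, *PYCR1* in 1 of 2, and *ALDH18A1* and *GPT2* in none.

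**Figure D2:**
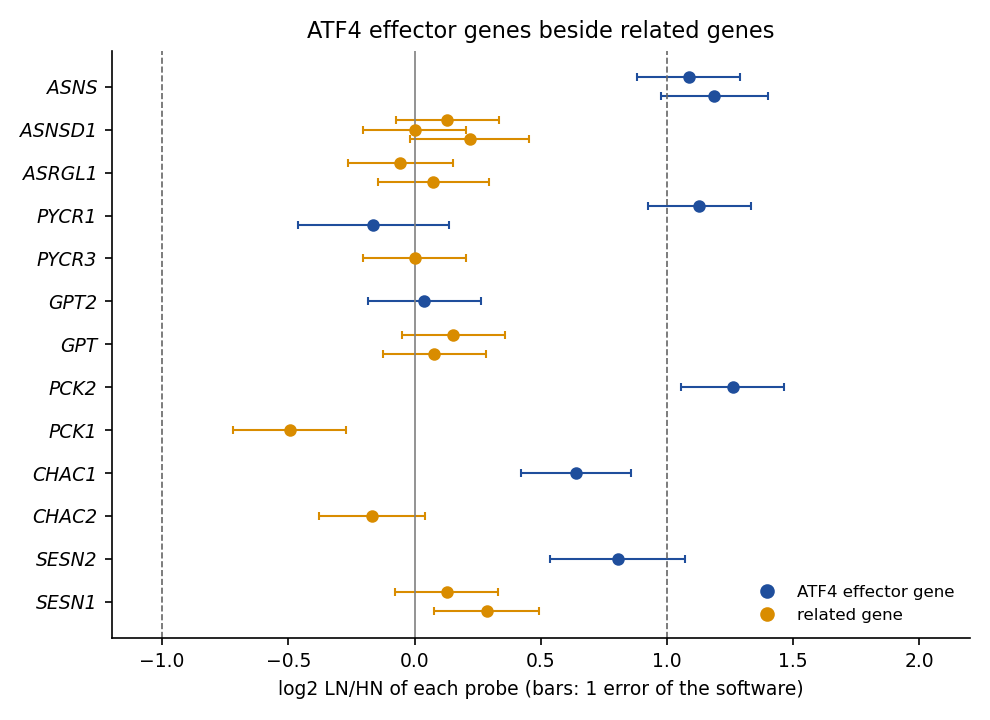
Log2 LN/HN of each probe with a ratio (x axis, log2 units, bars 1 error from the software's error estimates) for ATF4 effector genes (blue) and for genes of related sequence or reaction (orange), 1 array per pool, with dashed lines at 2-fold. Both probes of *ASNS*, 1 of *PYCR1* and the probe of *PCK2* lie right of the line at 1, while *PCK1* lies at -0.49 and the other related genes shown lie between -0.17 and 0.29.

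*CHAC1* encodes an enzyme that cleaves glutathione and is used as a late marker of the ATF4 branch of the stress response. Its probe had an intensity of 39.1 ± 4.20 in HN and 59.5 ± 6.22 in LN, giving a log2 ratio of 0.64 ± 0.22 (1.56-fold, rank 512). *CHAC2*, its constitutive relative, had 1 probe, at -0.17. *SESN2* encodes a leucine-binding protein that restrains mTORC1 when leucine is short. It was dim, with an intensity of 13.0 ± 1.82 in HN and 21.3 ± 2.61 in LN, giving a log2 ratio of 0.81 ± 0.27 (1.75-fold, rank 288). *SESN1*, which is a p53 target, had 0.21, with probes at 0.13 and 0.29. In the signal class of *SESN2* 95% of the probes lay between -0.67 and 0.73, and in that of *CHAC1* between -0.57 and 0.60. Both values lay just above these ranges, which were taken under quantile normalization only. *SESN2* was 0.67 after scaling to the 75th percentile and 0.90 on the authors' values. *CHAC1* was 0.57 and 0.63 in these settings. After the normexp background correction with an offset of 50, which compresses dim signals by its construction, *CHAC1* was 0.31 and *SESN2* was 0.16, both short of 0.32.

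*NUPR1*, a small chromatin-associated protein induced by many stresses, had a small positive ratio. Its first probe had an intensity of 2135 ± 213 in HN and 2756 ± 276 in LN, giving a log2 ratio of 0.33 ± 0.20. The second probe gave 508 ± 50.8 and 629 ± 63.0, a log2 ratio of 0.27 ± 0.20. Both probes had the same direction, but neither differed by more than 1.96 times its error, and the gene (0.30, 1.23-fold) stayed just under 0.32. It passed this limit without normalization (0.34) and with its brightest probe (0.33).

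*GDF15* encodes a circulating hormone that suppresses appetite through the hindbrain receptor GFRAL. Its probe gave an intensity of 1.50 ± 1.50 in HN and 2.09 ± 1.80 in LN, while the median of the negative control spots was 1.24 and 1.51. Both values are at the level of their own error, so a difference in *GDF15* was not detectable on these arrays, and no ratio is given. *STC2*, stanniocalcin-2, is a secreted glycoprotein that inhibits the IGF-binding protein protease PAPPA, and it was not analysed here. Its relative *STC1* had 1 probe, at -0.09 ± 0.20. Of the list of receptors and partners of these proteins, 5 of 10 genes had a value and none was above 0.32, against 8.85% of all genes, while 1 was below -0.32, against 9.11%. This was *RET*, the coreceptor through which GFRAL signals, which had a log2 ratio of -0.65 ± 0.23 from 1 of 2 probes and was -0.23 after the normexp background correction. The hormone arm of the response is therefore without a measured value here, and the differences described come from the intracellular effectors.

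**Figure D3:**
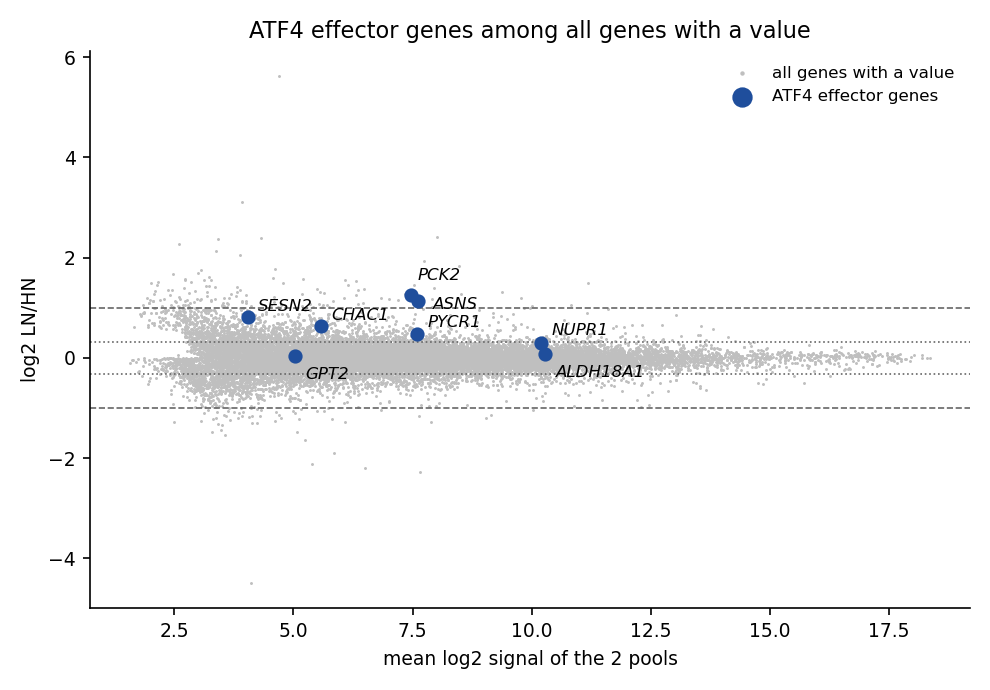
Log2 LN/HN (y axis) against the mean log2 signal of both pools (x axis) for the 19554 genes with a value (grey) and for the 8 ATF4 effector genes with a value (blue), 1 array per pool, with dashed lines at 2-fold and dotted lines at 0.32 in either direction. *PCK2* and *ASNS* lie above 2-fold in the middle of the signal range, *SESN2* lies where dim genes scatter widely, and *ALDH18A1* and *GPT2* lie within the band of all genes.

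The paralogues and counterpart enzymes as a list had a value for 9 of 11 genes. Of these, 5 were higher and 4 lower in the LN pool, against 49.3% of all genes higher. None was above 0.32, against 8.85% of all genes, and *PCK1* was the only one below -0.32, against 9.11%. Their median log2 ratio was 0.0010. *SESN3* and *ASPG* had no matched probe. A wider list of 17 genes of glutamate, proline, aspartate and alanine metabolism, written to surround the effector enzymes, had a value for 16 genes, with a median of 0.02. Its values ranged from -0.25 to 0.28, and no gene passed 0.32 in either direction, against 8.85% of all genes higher and 9.11% lower. *GOT1* (0.00074) and *GOT2* (0.04), the aspartate aminotransferases, were among them, as was *GLUL* (-0.20), which makes glutamine.

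The list of ATF4 regulators and other targets had a value for 27 of 36 genes, of which 21 were higher in the LN pool, against 49.3% of all genes. By more than 0.32, 9 were higher (8.85% of all genes) and 3 lower (9.11%). Since this list was also chosen with earlier results of these data known, nothing is read from these counts. The median was 0.20. *ATF4* itself, which is controlled largely by translation, had a log2 ratio of 0.26 with probes at 0.14, 0.15 and 0.47, and *DDIT3*, which encodes CHOP, had 0.87 with probes at 0.87 and 0.88. The targets past 2-fold were *MTHFD2* (1.60), *PHGDH* (1.49), *SLC7A5* (1.38), *PSAT1* (1.16), *TRIB3* (1.11) and *CEBPG* (1.06). After the normexp background correction *MTHFD2* (0.40), *PSAT1* (0.70), *SLC7A5* (0.65), *TRIB3* (0.52) and, by a narrow margin, *CEBPG* (0.99) were below 2-fold. *CEBPG* was also at 0.99 on the authors' values, *TRIB3* at 0.99 after scaling to the 75th percentile, and *SLC7A5* at 0.92 when dim probes were included. *TRIB3*, a pseudokinase that feeds back on ATF4, was uneven, with probes at -0.66, 1.98 and 2.01, and its value was 1.98 with its brightest probe or the median over probes and 2.06 on the authors' values. *SLC3A2* (0.64), the heavy chain that pairs with SLC7A5, and the eIF2α kinase gene *EIF2AK1* (0.39) passed 0.32 as well. The probes of *EIF2AK1* gave 0.0035 and 0.77, and the gene did not pass the limit after scaling to the 75th percentile (0.29), cyclic loess (0.31) or the normexp correction (0.03), or with its brightest probe.

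A further 3 ATF4-pathway genes differed in the opposite direction. *ATF3*, a stress-induced repressor, had an intensity of 7758 in HN and 4125 in LN, a log2 ratio of -0.95 ± 0.20 from 1 probe. *DDIT4*, which encodes the mTORC1 inhibitor REDD1, had probes at -0.52 and -0.49. *PPP1R15A*, which encodes the GADD34 subunit that removes the phosphate from eIF2α, had a mean of -0.65. Its brighter probe gave -0.36 and the other a limit of -0.93 from a spot that was dim on the LN array. The gene was at -0.36 with probes measured on both arrays, at -0.35 on the authors' values and at -0.15 after the normexp correction, which is short of 0.32. These genes were lower in the same pool in which *ASNS*, *PCK2* and *DDIT3* were higher. They were 3 of the 27 listed genes with a value, close to the 9.11% of all genes below -0.32. No division of the ATF4 targets is therefore read from them.

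**Figure D4:**
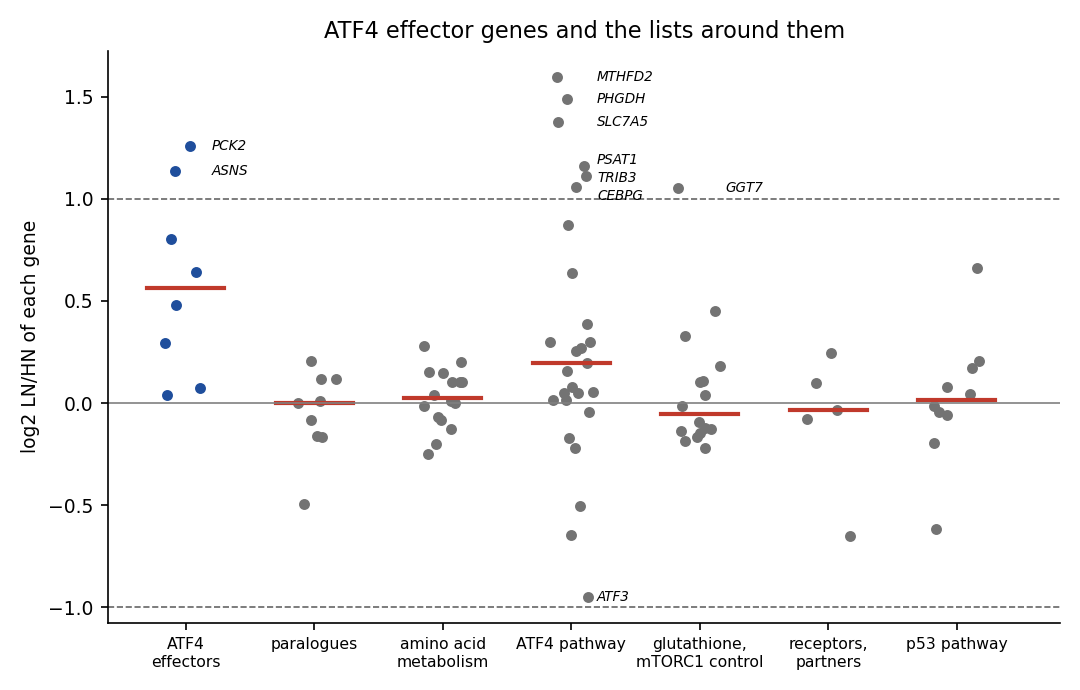
Log2 LN/HN of each gene with a value (y axis, log2 units, points spread sideways for legibility) for the ATF4 effector genes (blue) and 6 lists around them (grey), 1 array per pool, with red bars at the medians and dashed lines at 2-fold. The medians are 0.56 for the effector genes and 0.20 for the ATF4 pathway, and between -0.05 and 0.02 for the other lists. *GGT7* is a limit from a dim spot.

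In the list of glutathione enzymes and of regulators of mTORC1 upstream and downstream of SESN2, 16 of 20 genes had a value, 3 were above 0.32 (against 8.85% of all genes) and none was below -0.32 (against 9.11%). The median was -0.05. *GGCT*, another cyclotransferase of the glutathione cycle, had a log2 ratio of 0.45 ± 0.21, and *GSS*, glutathione synthetase, had 0.33 ± 0.21, which became -0.13 when its dim probe was included. *GSS* was also under 0.32 after scaling to the 75th percentile (0.30), on the authors' values (0.31) and after the normexp correction (0.22), and *GGCT* after the latter (0.26). The detected probe of *GGT7* was not well above background on the HN array, so its log2 ratio of 1.05 (2.07-fold) is a limit. This limit moved with the scaling, to 0.82 with the 75th percentile, 0.81 with cyclic loess, 0.86 on the unnormalized signals and 0.12 after the normexp correction. The 4 listed subunits of GATOR2, the complex to which SESN2 binds, lay between -0.09 (*WDR24*) and 0.18 (*SEH1L*).

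*SESN2* and *GDF15* are also induced by p53, so a list of 15 p53 pathway genes was examined beside them. Values were obtained for 10, of which 5 were higher and 5 lower, against 49.3% of all genes higher. The median was 0.02. By more than 0.32, 1 was higher (8.85% of all genes) and 1 lower (9.11%), so nothing is read from these counts. *CDKN1A*, the p21 inhibitor of the cell cycle, which ATF4 signaling can induce as well, had a log2 ratio of 0.66 with probes at 0.30 and 1.02. The death receptor gene *FAS* had -0.62 ± 0.21. *MDM2* (0.05), *ZMAT3* (0.08) and *CCNG1* (-0.05) were close to 0.

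Markers of other cell types also differed between the pools. For the counts that follow, 49.3% of all genes were higher in the LN pool by any amount, 8.85% were above 0.32 and 9.11% below -0.32. Among 8 neutrophil markers, 7 could be measured and 5 exceeded 0.32, namely *S100A8* (1.39), *S100A9*, *LTF* (0.76), *CATHL1* (0.68) and *S100A12* (0.61), while *MMP9* (-0.24) and *CXCR2* (a limit of -0.79, and -0.14 after the normexp correction) were lower. Their normalized signals summed to 1332 in HN and 2274 in LN. Of 8 macrophage markers 6 of the 7 with a value were lower in the LN pool (summed signal 7038 in HN and 5527 in LN), with *C1QB* (-0.45), *C1QC* (-0.40) and *CD68* (-0.35) below -0.32, *CD68* not after the normexp correction (-0.13) or with its brightest probe (-0.28). Of the 6 endothelial markers 5 were lower (11951 and 9303), and *CLDN5* (-0.39) was below -0.32. Of the 9 muscle markers with a value 8 were lower (median -0.12, summed signal 900691 in HN and 849903 in LN), with *MB* at -0.37, and -0.31 with its brightest probe. The other was *MYH8* at 0.35, and 0.04 with its brightest probe. Of the 7 erythroid markers 5 had a value, between -0.18 and 0.0021. Of the adipocyte markers 3 of 5 had a value, from -0.14 to 0.39 (*FABP4*). Of the 5 liver markers 3 were lower, *ALB* (-1.0), *AHSG* (-0.67, with 7 probes from -1.56 to 0.17) and *TTR* (-0.04), and 2 were higher, *APOA1* (0.04) and *FGB* (0.19). The values of *ALB* and *AHSG* each include 2 limits. *ALB* was -0.24 after the normexp correction, and *AHSG* was -0.31 on the authors' values. The part of these cell types in the signals of the ATF4 effector genes was not tested.

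The deposited values that the study normalized itself covered 11 of the 12 probes of the effector genes, all but that of *GDF15*. On them the log2 ratio of a probe differed from the value given here by at most 0.093. In those values *PCK2* was 1.20, *ASNS* 1.11, *SESN2* 0.90, *CHAC1* 0.63 and *PYCR1* 0.43. These come from the same scans, so they are not a repeat measurement.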

How the data were processed

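Total RNA pools of 4 fetuses per group were measured on 2 one-color Agilent Bovine (v2) arrays. The authors deposited spot intensities from Agilent Feature Extraction 11.0.1.1, corrected for background without normalization between arrays. The authors also deposited log2 values after quantile normalization in GeneSpring GX. The log2 scale was judged from the values. Here the log2 intensities of the 43803 non-control spots were quantile-normalized with limma 3.58.1 in R 4.3.3, 13 spots with an outlier flag were left out, and replicate spots were averaged per probe with Python 3.11.15. Probes had to be well above background on 1 or both arrays. For a dim side the lowest normalized signal well above background was taken as a limit (log2 2.27 on HN and 2.82 on LN), and no ratio was given where the bright side did not exceed it. Genes were given the mean of their probes. Probe accessions were named through the RefSeq gene table of ARS-UCD2.0 (26742 of 43652 probes matched). The design of the array refers to UMD_3.1, so no coordinates are given.

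The genes and lists were chosen with earlier results of these data known. The genes named are the 10 effector genes, the paralogues (some genes are not reported here), *ATF4*, *DDIT3* and the genes of the other lists past a log2 ratio of 0.32, while the markers and some others in the lists were added after their values were seen. The steps were tested on simulated data, and 12 alternative settings were tried. Promoter sequences were not used here, so the planned motif search was not run. The normexp alternative used median in place of mean spot signals. The number of arrays limits the precision.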

Additional observations from a re-analysis of the deposited data

How the results depend on the processing

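No paired analysis was possible because each group was measured on 1 array. The count of effector genes past 2-fold was 2 and that past a log2 ratio of 0.32 was 5. After the normexp background correction these counts were 0 and 3, and the median log2 ratio of the effector genes was 0.28 in place of 0.56, with *ASNS* at 0.84 and *PCK2* at 0.86. The offset of 50 compresses ratios of dim signals by construction. With the brightest probe of each gene the median was 0.72, and *PYCR1* became the third gene past 2-fold. Under the other settings *PCK2* and *ASNS* were past 2-fold in each case. Over all genes, the count past 2-fold higher ranged from 9 (normexp) to 661 (positive and significant probes), and that past 2-fold lower from 4 to 652, against 139 and 56. Without a filter it was 595 in each direction, with dim signals as measured 203 and 263, and with detection on both arrays 81 and 43. The median of the paralogues stayed between -0.058 and 0.034. *GSS* changed sign to -0.13 both without a filter on dim probes and when probes only had to be positive and significant. Among the effector probes with a ratio, the dim ones (the second probe of *PYCR1*, *SESN2*, *GPT2*) carry the largest errors, and a limit cannot be set on the variation between fetuses.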
